A study of Caenorhabditis elegans with 24 samples.

Results

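The insulin-like peptide genes of *C. elegans* were followed over 6 conditions of arrested and fed L1 larvae. Members were chosen by name: every gene whose WormBase symbol is ins- followed by a number, and daf-28, and of these the genes above 1 CPM (reads of a gene, scaled to a total of 1000000 counted reads) in at least 4 of the 24 libraries. The count files held 40 such genes, of which 39 are annotated as protein-coding and ins-38 as a pseudogene, and 30 of the 40 passed among 19050 genes that passed in all. Embryos were left for 24 h to hatch without food, and HB101 bacteria were then added or not, with or without ivermectin, to ask what the perception of food does when it cannot be eaten. The strain in every group was LRB269. It has lost the glutamate-gated chloride channel genes glc-1, glc-3, avr-14 and avr-15, through which ivermectin paralyses worms, and has avr-15 back in the pharyngeal muscle alone, driven by myo-2, which confines the action of the drug to the pharynx. The groups were IvF at 24 h (25 mg/mL HB101 with 5 ng/mL ivermectin), IvS at 24 h (ivermectin, no food), IvF at 1 h, IvS at 1 h, F at 1 h (HB101 without ivermectin) and S at 1 h (starved without ivermectin), with 4 libraries each and hours counted from the addition of food. The methods give 0.1% DMSO to the larvae without ivermectin, and the labels and methods differ in the culture volume and medium. For this strain the methods also name a higher dose of ivermectin, as the least that stopped eating, than the 5 ng/mL used for sequencing. Whether feeding was fully blocked in the sequenced cultures cannot be read from the counts.

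Insulin-like peptides are secreted, mostly by neurons and the intestine, and act through the single insulin receptor DAF-2. An occupied receptor signals through the kinases AGE-1, PDK-1, AKT-1 and AKT-2 to keep the transcription factor DAF-16/FOXO out of the nucleus, and DAF-16 is needed to keep a starved L1 larva in arrest. Genetic work in this animal treats daf-28, ins-3, ins-4, ins-5, ins-6 and ins-7 as putative agonists and ins-1, ins-17 and ins-18 as putative antagonists of DAF-2, and the other 21 members are left here without a role. The sensory neurons ASI and ASJ are the known main source of DAF-28 and INS-6.

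Reads counted on genes numbered 14498061 to 19448998 in the 16 libraries with ivermectin and 8690378 to 14139935 in the 8 without it, so that 3 reads correspond to 0.154 to 0.345 CPM. Reads outside annotated features made up 4.39% to 11.3% of the aligned reads with ivermectin and 2.67% to 3.70% without it. Replicates are numbered 1 to 4 without ivermectin, and with it the labels give library names such as IF_24hr_181 for IvF and I_24hr_181 for IvS, by which single libraries are called here. The study speaks of 2 batches of count tables without naming their libraries, so that ivermectin and batch cannot be told apart. The kit did not mark strand. Summed markers were 730 to 1356 CPM over 6 neuronal genes in every library, against 0.498 to 6.82 CPM over 4 early embryonic genes. Over 3 adult genes the sums were 40.5 to 93.0 CPM without ivermectin and 1.46 to 38.5 CPM with it. Carry-over of adult material was not tested. CPM are given on the library total. Log2 fold changes (± SE) and Benjamini-Hochberg adjusted p are from edgeR's quasi-likelihood test on TMM-scaled counts over all 19050 genes, and a member is said to rise or fall at an adjusted p below 0.05 with a change above 0.5. TMM factors ran from 0.897 to 1.30 with and 0.620 to 0.957 without ivermectin, so that a fitted change can differ from the ratio of CPM.

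Per kilobase of exon, ins-17 was the most abundant member in all 6 conditions. Its median was 158.6 RPKM in IvF at 24 h, 158.9 RPKM in IvS at 24 h, 137 RPKM in IvF at 1 h, 148 RPKM in IvS at 1 h, 228 RPKM in F and 260.1 RPKM in S. It stood clear of the next member in the 4 ivermectin conditions, whereas in F and S its range overlapped that of ins-35. The next places changed with the condition. They were held by ins-30 and ins-24 in IvF at 24 h, by ins-30 and ins-27 in IvS at 24 h, by daf-28 and ins-1 in IvF at 1 h and by ins-35 and ins-27 in IvS at 1 h. In F they were held by ins-35 and ins-1, and in S by ins-35 and ins-27. Of 174 pairs of neighbours in this order over the 6 conditions, 148 overlapped in their ranges, and the step from ins-30 to ins-24 in IvF at 24 h was among the 26 that did not. The 30 members together held 352 to 401 CPM in IvF at 24 h, 286 to 318 CPM in IvS at 24 h, 273 to 347 CPM in IvF at 1 h, 267 to 309 CPM in IvS at 1 h, 486 to 616 CPM in F and 541 to 776 CPM in S.

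**Figure D1:**
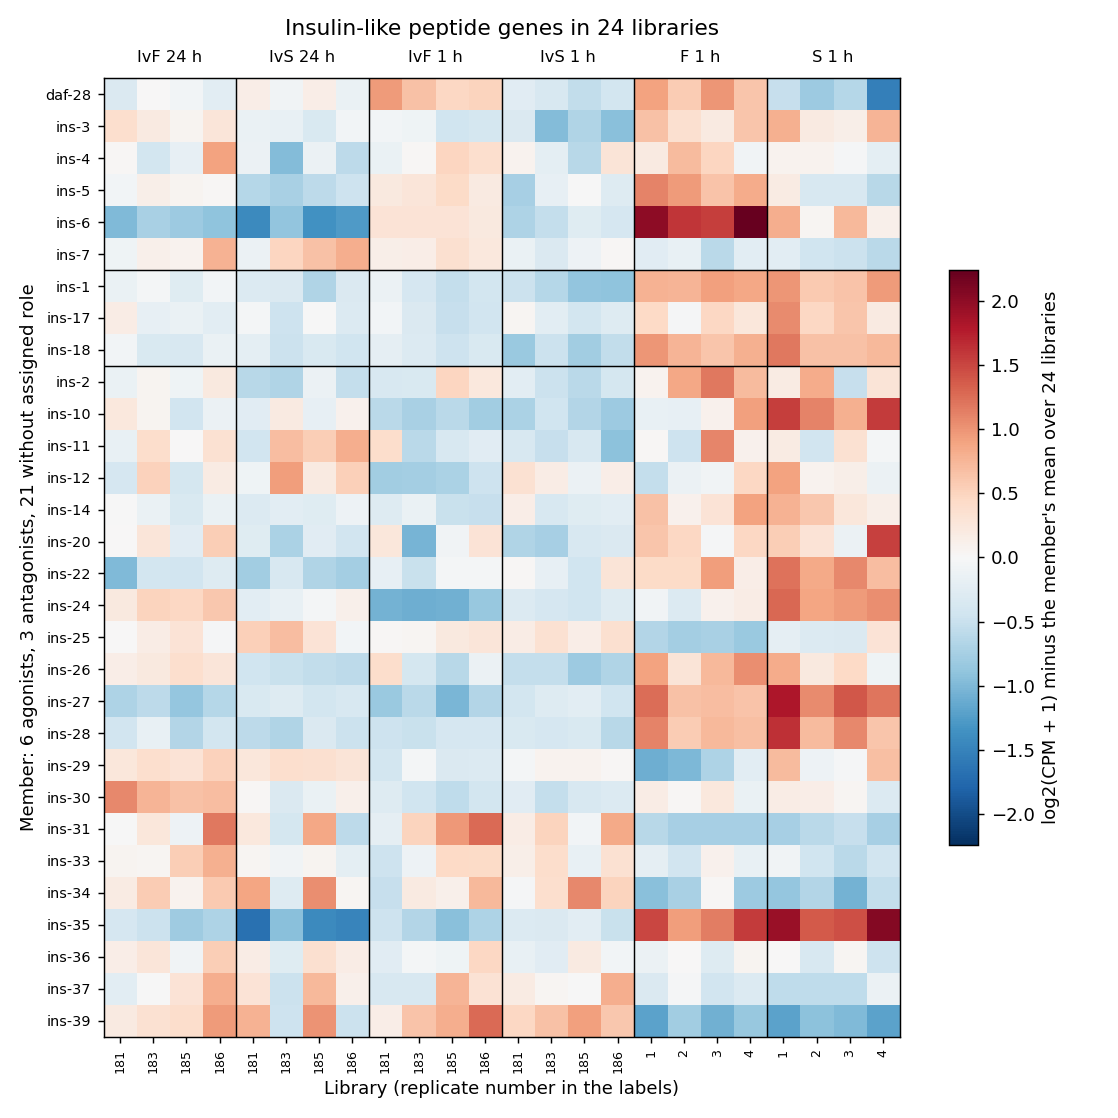
Each cell is log2(CPM + 1) of a member in a library minus that member's mean over the 24 libraries. Libraries run across in 6 conditions, and members run down as 6 putative agonists, 3 putative antagonists and 21 members without a role. The 8 libraries of F and S stand apart from the 16 ivermectin libraries in ins-35, ins-27 and ins-28, which are high there, and in ins-39, which is low.

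Of the 30 members, 14 were above 1 CPM in all 24 libraries, and ins-7, ins-31, ins-33, ins-36, ins-37 and ins-39 passed only through libraries with ivermectin. Just inside the filter, ins-7, ins-36 and ins-37 were above 1 CPM in 4 libraries, and just outside it ins-16 was in 3 libraries, with at most 1.32 CPM. The 10 members that did not pass were ins-8, ins-9, ins-13, ins-15, ins-16, ins-19, ins-21, ins-23, ins-32 and ins-38. They had 35 to 204 reads each over all libraries and at most 1.91 CPM in any. With no filter on low counts, 2 of these 10 passed in IvF against F. In that fit 13207 genes passed in all, 8401 of them higher, and the median log2 fold change over all genes was 0.77. The pseudogene ins-38 had 33 reads over the 4 IvF libraries (0 to 19 each) and 0 over the 4 F libraries (adjusted p = 0.0103), and ins-32 had 51 reads in IvF (4 to 22 each) and 5 in F (1 to 2 each; adjusted p = 0.0321). None of the 10 passed in the other comparisons without the filter. By name and annotation, 16 of the 40 members lie on chromosome II and 10 on chromosome I. Of these, 7 members on chromosome I (ins-24 to ins-30) and 5 on chromosome II (ins-2 to ins-6) form groups of neighbours.

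One hour of feeding without ivermectin moved members in both directions. In F against S, 10 of 30 members passed, 3 higher and 7 lower, where 29.0% of all 19050 genes passed (13.6% higher, 15.4% lower). The 3 that rose, daf-28, ins-6 and ins-5, are all putative agonists, and the 7 that fell, ins-10, ins-22, ins-24, ins-25, ins-27, ins-29 and ins-35, all belong to the members without a role. The same split goes with exon length, since the 7 have 310 to 478 bases and the 3 have 520 to 866 bases. The part of length was not tested. By CPM alone 6 members did not overlap, where 24.5% of all genes did not. The median log2 fold change was -0.17 over the 30 members and -0.07 over all genes. In whole larvae, fewer cells of a type and less RNA per cell cannot be told apart, and the summed neuronal markers overlapped (1003 to 1184 CPM in F, 1066 to 1356 CPM in S), with 0 of 6 markers past the test.

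Among the agonists, daf-28 had 55.6, 44.2, 59.2 and 45.5 CPM in F, against 20.3, 16.4, 18.6 and 9.50 CPM in S (log2 fold change 1.41 ± 0.24, adjusted p = 6.72e-05). For ins-6 the values were 19.6, 14.5, 13.9 and 23.2 CPM in F and 7.99, 4.29, 7.47 and 4.58 CPM in S (log2 fold change 1.28 ± 0.27, adjusted p = 6.08e-04). In ins-5 they were 8.03, 7.02, 5.48 and 6.37 CPM in F and 3.75, 2.25, 2.24 and 1.72 CPM in S (log2 fold change 1.19 ± 0.27, adjusted p = 0.00113). In each of these genes every fed library lay above every starved one. The other agonists did not pass: ins-3 changed by -0.22 ± 0.23 (adjusted p = 0.507), ins-4 by 0.46 ± 0.63 (adjusted p = 0.638) and ins-7 by 0.53 ± 0.83 (adjusted p = 0.685) on the log2 scale. None of the 3 antagonists passed either. The most abundant of them, ins-17, had 136, 97.5, 137 and 118 CPM in F and 207, 137, 153 and 114 CPM in S (log2 fold change -0.55 ± 0.23, adjusted p = 0.0759), and ins-1 and ins-18 changed by -0.17 ± 0.18 and -0.24 ± 0.18. Without replicate 2 or 4 of S, ins-17 passed (adjusted p = 0.0433 and 0.0150).

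Of the members lower in F, 4 belong to the 7 neighbours on chromosome I. The largest fall was that of ins-29, with 0.714, 0.805, 1.25 and 2.09 CPM in F and 4.95, 2.36, 2.57 and 4.81 CPM in S (log2 fold change -1.80 ± 0.30, adjusted p = 3.80e-05). Its neighbour ins-25, the least abundant of the group, had 0.446, 0.345, 0.384 and 0.285 CPM in F and 0.990, 0.859, 0.830 and 1.83 CPM in S (log2 fold change -1.76 ± 0.37, adjusted p = 6.60e-04). In both genes every fed library was below every starved one, at 50 and 15 reads over the 4 F libraries for ins-29 and ins-25. The fall of ins-24 was as clear, at 20.5, 17.4, 23.3 and 24.5 CPM in F and 54.4, 41.01, 43.2 and 45.7 CPM in S (log2 fold change -1.32 ± 0.15, adjusted p = 3.01e-07). A smaller change was seen in ins-27, with 51.3, 33.5, 34.6 and 33.2 CPM in F and 76.2, 44.7, 56.8 and 49.5 CPM in S (log2 fold change -0.80 ± 0.21, adjusted p = 0.00490), and here replicate 1 was high in both groups, so that the groups overlapped. The remaining neighbours did not pass. Their changes were 0.15 ± 0.26 for ins-26, -0.54 ± 0.24 for ins-28 and -0.16 ± 0.19 for ins-30. Without replicate 1 of F or replicate 2 or 4 of S, ins-28 passed as well (adjusted p 0.0172 to 0.0308).

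Outside that group, ins-10 fell to 5.62, 5.52, 6.92 and 13.1 CPM in F, against 20.7, 15.1, 11.95 and 21.1 CPM in S (log2 fold change -1.34 ± 0.25, adjusted p = 1.41e-04). Only the fourth F library, at 13.1 CPM, reached into the starved range. Exons of ins-10 overlap those of vps-39 on the other strand, and reads in the shared stretch cannot be told apart. Whether such reads were counted depends on the strand setting, which is not given. vps-39 averaged 41.2 ± 6.38 CPM in F and 32.5 ± 9.53 CPM in S (SD, n = 4 each), a log2 fold change of 0.18 ± 0.12 (edgeR, adjusted p = 0.300). ins-35, the second most abundant member per length in both groups, had 82.97, 56.2, 65.4 and 86.8 CPM in F and 113, 76.7, 80.3 and 124 CPM in S (log2 fold change -0.63 ± 0.22, adjusted p = 0.0310). ins-22 had 4.01, 4.03, 6.15 and 3.14 CPM in F and 7.64, 5.69, 6.81 and 5.03 CPM in S (log2 fold change -0.77 ± 0.29, adjusted p = 0.0416). Both sets overlapped between the groups and depended on single libraries. The call of ins-35 was lost without replicate 2 or 3 of F or replicate 1, 3 or 4 of S (adjusted p 0.0616 to 0.117). That of ins-22 was lost without replicate 1, 2 or 4 of F or replicate 1 or 3 of S (adjusted p 0.0733 to 0.163).

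**Figure D2:**
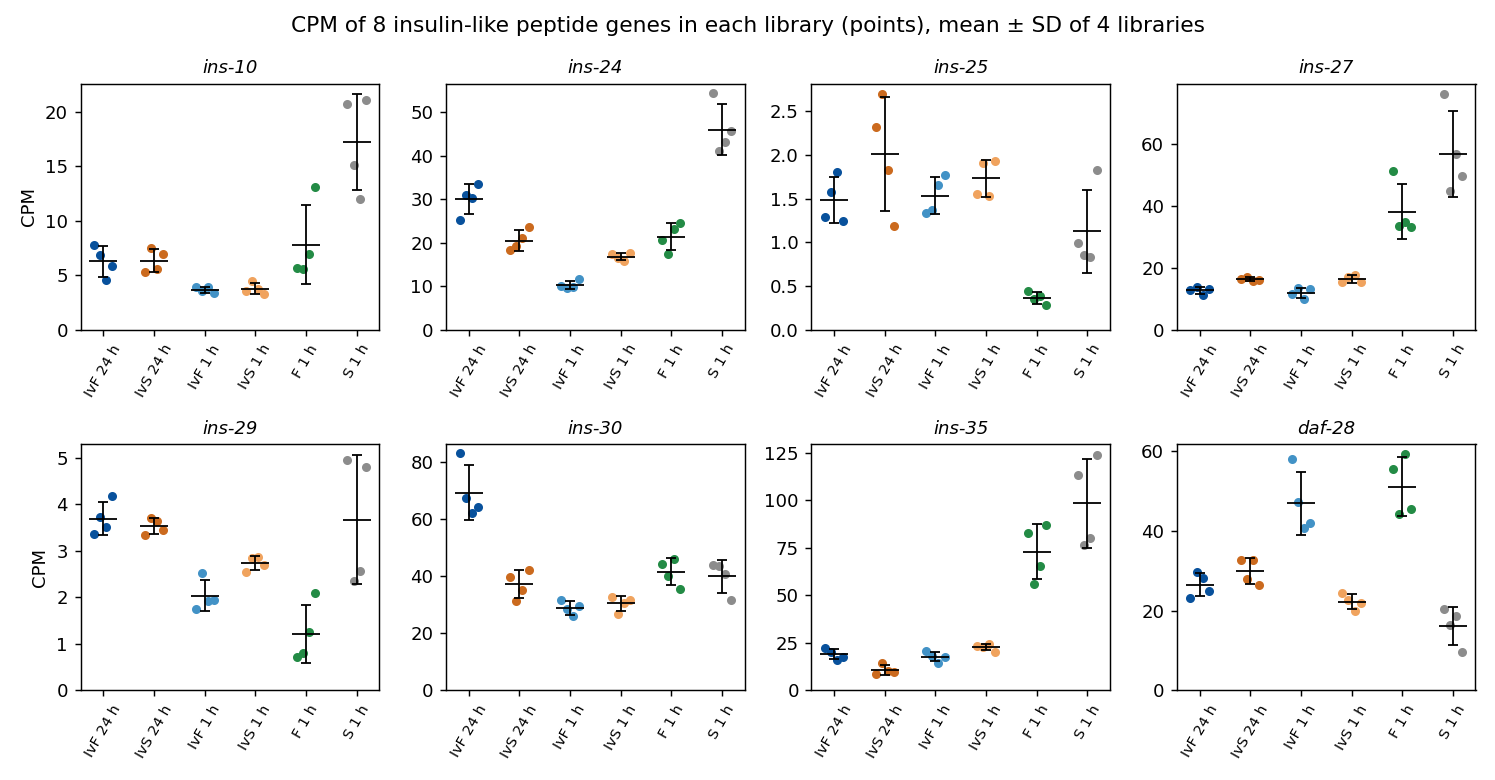
CPM (library total) of 8 members in every library, with points for libraries and the bar and whiskers for the mean and SD of 4 libraries; every axis starts at 0. In ins-24, ins-25 and ins-29 all F points lie below all S points, and in ins-30 the 4 points of IvF at 24 h lie above all other libraries.

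With ivermectin, an hour with food moved fewer members. In IvF against IvS at 1 h, 4 of 30 members passed, where 5.56% of all genes passed (3.27% higher, 2.29% lower). daf-28 and ins-6 rose, and ins-12 and ins-24 fell. The medians were 0.02 over the 30 members and 0.02 over all genes. daf-28 had 57.9, 47.1, 40.7 and 41.9 CPM in IvF and 24.4, 22.7, 19.8 and 21.9 CPM in IvS (log2 fold change 1.11 ± 0.24, adjusted p = 0.00466), with no overlap. ins-6 had 5.35, 5.31, 5.35 and 4.996 CPM in IvF and 2.18, 2.54, 3.27 and 2.97 CPM in IvS (log2 fold change 0.94 ± 0.28, adjusted p = 0.0454). This call was lost without any of IF_1hr_181, IF_1hr_183, IF_1hr_185, I_1hr_181, I_1hr_183 and I_1hr_186 (adjusted p 0.0650 to 0.139), although every IvF library remained above every IvS library. ins-24 had 9.92, 9.67, 9.81 and 11.6 CPM in IvF and 17.3, 16.6, 15.7 and 17.5 CPM in IvS (log2 fold change -0.72 ± 0.15, adjusted p = 0.00429). The rare ins-12 had 0.154, 0.158, 0.208 and 0.426 CPM in IvF, 17 reads in all, and 1.49, 1.22, 0.800 and 1.17 CPM in IvS, 76 reads in all (log2 fold change -2.33 ± 0.57, adjusted p = 0.0133).

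By CPM alone, 9 members did not overlap between IvF and IvS at 1 h, where 16.2% of all genes did not. Beside the 4 named, they were ins-5, ins-7 and ins-18, which were higher in IvF, and ins-27 and ins-29, which were lower. None of these passed the test, and on TMM-scaled CPM ins-5, ins-18 and ins-29 overlapped between the groups. For ins-27 the CPM were 11.4, 13.5, 9.86 and 12.98 in IvF and 15.5, 17.1, 17.7 and 15.2 in IvS (log2 fold change -0.47 ± 0.22, adjusted p = 0.312). For ins-29 they were 1.75, 2.52, 1.92 and 1.95 in IvF and 2.55, 2.86, 2.87 and 2.69 in IvS (log2 fold change -0.43 ± 0.27, adjusted p = 0.595).

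Whether the response to food differed with ivermectin was tested directly, as the food effect with ivermectin minus that without it. The difference passed in 3 of 30 members, ins-10, ins-25 and ins-29, where 10.3% of all genes passed (5.02% higher, 5.31% lower), and it was positive in each. With ivermectin ins-10 had 3.91, 3.52, 3.89 and 3.35 CPM in IvF and 3.55, 4.44, 3.73 and 3.24 CPM in IvS, a change of -0.03 ± 0.26 beside -1.34 ± 0.25 without ivermectin (difference 1.31 ± 0.35, adjusted p = 0.0168). The overlapping vps-39 gave a difference of -0.20 ± 0.17 (adjusted p = 0.577). ins-25 had 1.34, 1.37, 1.66 and 1.77 CPM in IvF and 1.56, 1.90, 1.53 and 1.93 CPM in IvS, a change of -0.19 ± 0.31 beside -1.76 ± 0.37 (difference 1.56 ± 0.48, adjusted p = 0.0377). In ins-29 the change of -0.43 ± 0.27 stood beside -1.80 ± 0.30 (difference 1.37 ± 0.40, adjusted p = 0.0285). In all 3 genes, then, the fall seen in F against S was smaller or missing in IvF against IvS. The call of ins-10 held without each library in turn, while that of ins-25 was lost in 12 of 16 such fits (adjusted p 0.0515 to 0.0861). Of its 16 libraries, leaving out replicate 1 of F, replicate 1 or 2 of S or IF_1hr_183 kept that call. For ins-29 it was lost in 7 fits, without replicate 1 or 2 of F, replicate 1 of S, IF_1hr_183, I_1hr_181, I_1hr_183 or I_1hr_186 (adjusted p 0.0503 to 0.0753). Each of the 3 genes also passed in at least 1 comparison of libraries with and without ivermectin. None of daf-28, ins-5 and ins-6 passed this test, with differences of -0.31 ± 0.34, -0.46 ± 0.37 and -0.34 ± 0.39, and the result does not show that their changes were alike.

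**Figure D3:**
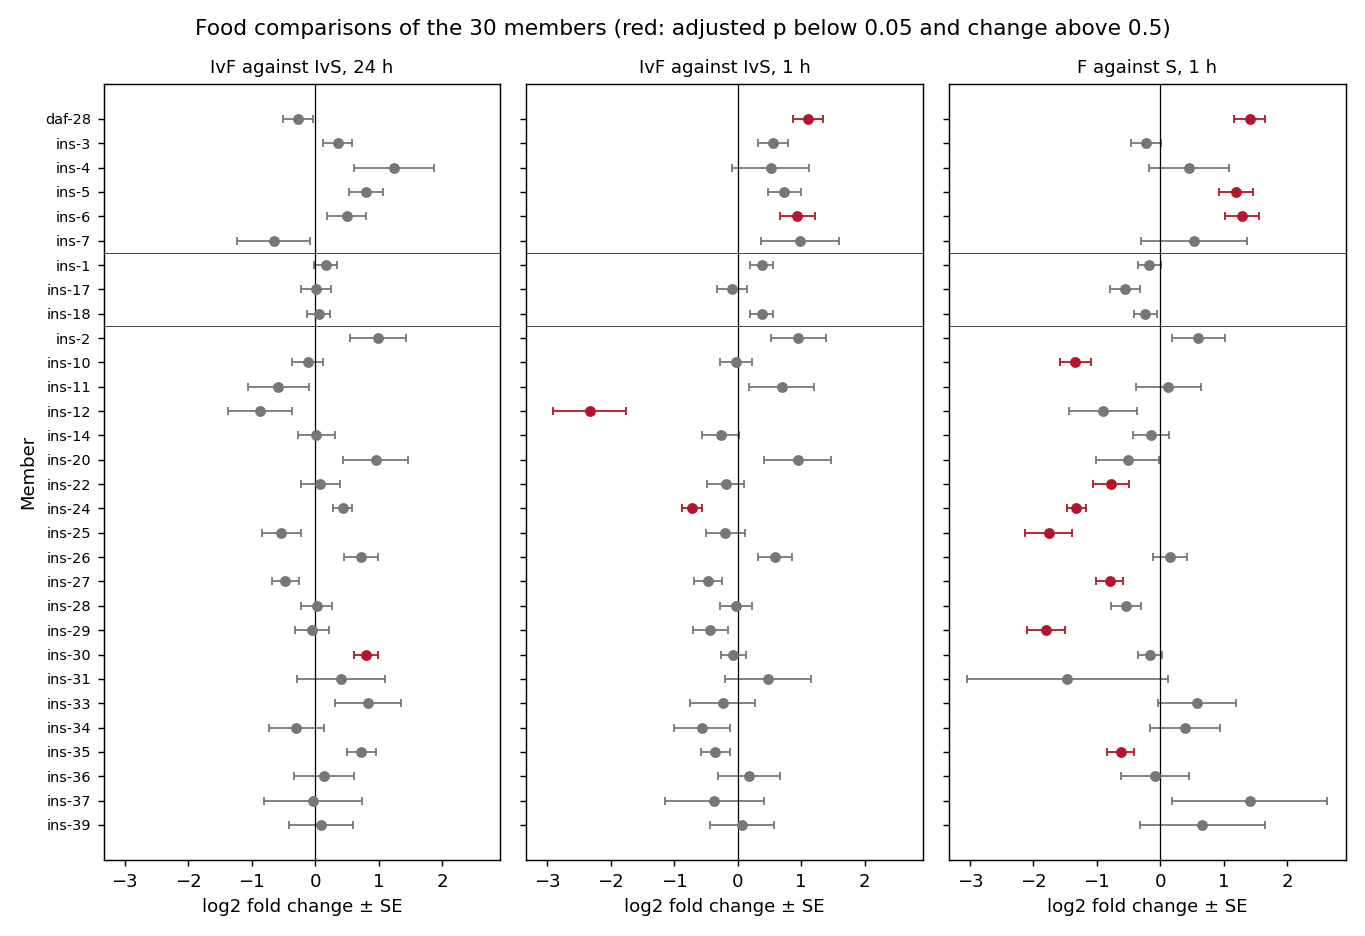
Log2 fold change ± SE of the 30 members in the 3 food comparisons, with IvF against IvS at 24 h left, IvF against IvS at 1 h in the middle and F against S right. Red marks members past both thresholds, 1, 4 and 10 from left to right; the horizontal lines separate 6 agonists, 3 antagonists and 21 members without a role.

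After 24 h with food and ivermectin, 1 of 30 members passed in IvF against IvS, where 0.777% of all genes passed (0.583% higher, 0.194% lower). This was ins-30, with 83.3, 67.3, 62.2 and 64.3 CPM in IvF and 39.8, 31.2, 35.3 and 42.3 CPM in IvS (log2 fold change 0.81 ± 0.19, adjusted p = 0.0451). Every IvF library was above every IvS library. The adjusted p lay close to the threshold, and the call was lost without IF_24hr_181, IF_24hr_183, I_24hr_181, I_24hr_183 or I_24hr_185 (adjusted p 0.0563 to 0.249), which leaves 0 members past the test. A further 6 members had an unadjusted p below 0.05, of which ins-2, ins-5, ins-24, ins-26 and ins-35 were higher in IvF and ins-27 was lower. With ins-30 these are 7 of 30 members, where 6.52% of all genes had such a p.

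By CPM alone, 8 members did not overlap at 24 h, where 6.16% of all genes did not: ins-1, ins-3, ins-5, ins-24, ins-26, ins-30 and ins-35 were higher in IvF, and ins-27 was lower. On TMM-scaled CPM, ins-1, ins-3 and ins-35 overlapped between the groups, while ins-2 no longer did. ins-24, ins-30 and ins-26 are adjacent genes on chromosome I in the WBcel235 annotation. ins-24 had 25.3, 31.01, 30.3 and 33.4 CPM in IvF and 18.3, 19.2, 21 and 23.5 CPM in IvS (log2 fold change 0.44 ± 0.15, adjusted p = 0.323). ins-26 had 15.1, 15.8, 17.8 and 16.6 CPM in IvF and 9.72, 9.33, 8.95 and 8.67 CPM in IvS (log2 fold change 0.73 ± 0.27, adjusted p = 0.417). On chromosome V, ins-35 had 22.02, 20.4, 16.2 and 17.4 CPM in IvF and 8.43, 14.6, 10.2 and 9.68 CPM in IvS (log2 fold change 0.73 ± 0.23, adjusted p = 0.242). Of the antagonists, ins-1 had 46.9, 50.2, 42.9 and 49.8 CPM in IvF and 42.04, 41.4, 32.3 and 41.3 CPM in IvS (log2 fold change 0.17 ± 0.18, adjusted p = 0.999). daf-28 no longer separated the groups, at 23.2, 29.6, 28.1 and 24.9 CPM in IvF and 32.8, 27.8, 32.7 and 26.4 CPM in IvS (log2 fold change -0.27 ± 0.24, adjusted p = 0.999). For ins-6 the values were 1.60, 2.09, 1.92 and 1.75 CPM in IvF and 0.901, 1.80, 0.995 and 1.13 CPM in IvS (adjusted p = 0.949).

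The food effect at 24 h was set against that at 1 h in a test of the difference, which 2 of 30 members passed, where 0.971% of all genes did (0.661% higher, 0.310% lower). ins-24 changed by 0.44 ± 0.15 at 24 h and -0.72 ± 0.15 at 1 h, so that its order turned round (difference 1.16 ± 0.21, adjusted p = 0.00547). This call held without each of the 16 libraries in turn. daf-28 changed by -0.27 ± 0.24 at 24 h and 1.11 ± 0.24 at 1 h (difference -1.38 ± 0.33, adjusted p = 0.0427). In 14 of 16 fits with 1 library left out this call was lost (adjusted p 0.0558 to 0.116), and it was kept without IF_1hr_185 or IF_1hr_186. The differences of ins-30 (0.88 ± 0.27, adjusted p = 0.169) and ins-35 (1.08 ± 0.32, adjusted p = 0.133) did not pass. Without I_24hr_183 ins-35 passed as well (adjusted p = 0.0380).

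The time comparisons give the change on each side of these differences. The comparisons within IvF and within IvS share their libraries with the food comparisons, so the values describe the same data again. In IvF at 24 h against IvF at 1 h, 5 of 30 members passed, where 9.92% of all genes passed (4.20% higher, 5.72% lower). By CPM alone 9 members did not overlap, where 23.0% of all genes did not. ins-30 had 83.3, 67.3, 62.2 and 64.3 CPM in IvF at 24 h and 31.8, 28.5, 26 and 29.4 CPM in IvF at 1 h (log2 fold change 1.22 ± 0.19, adjusted p = 1.45e-04). ins-24 had 25.3, 31.01, 30.3 and 33.4 CPM at 24 h and 9.92, 9.67, 9.81 and 11.6 CPM at 1 h (log2 fold change 1.51 ± 0.15, adjusted p = 5.29e-07). ins-12 had 0.517, 1.80, 0.494 and 1.24 CPM at 24 h and 0.154, 0.158, 0.208 and 0.426 CPM at 1 h (log2 fold change 2.06 ± 0.57, adjusted p = 0.0200). These 3 rose with no overlap, and the call of ins-12 was lost without IF_24hr_183, IF_1hr_183 or IF_1hr_185 (adjusted p 0.0578 to 0.105). The 2 members that fell are agonists. ins-6 had 1.60, 2.09, 1.92 and 1.75 CPM at 24 h and 5.35, 5.31, 5.35 and 4.996 CPM at 1 h (log2 fold change -1.55 ± 0.29, adjusted p = 6.42e-04). daf-28 had 23.2, 29.6, 28.1 and 24.9 CPM at 24 h and 57.9, 47.1, 40.7 and 41.9 CPM at 1 h (log2 fold change -0.90 ± 0.24, adjusted p = 0.0138), and its call was lost without IF_1hr_181 (adjusted p = 0.0740). Same-numbered libraries of IvF at the 2 times varied together. With a block for the number, fitted over all 16 ivermectin libraries, ins-10 and ins-29 rose as well (adjusted p = 0.0261 and 0.00662). That fit also held the IvS libraries, of which same-numbered ones at the 2 times correlated at only -0.12 to 0.14. ins-10 had 7.80, 6.81, 4.55 and 5.82 CPM at 24 h and 3.91, 3.52, 3.89 and 3.35 CPM at 1 h, and ins-29 3.36, 3.72, 3.51 and 4.18 CPM at 24 h and 1.75, 2.52, 1.92 and 1.95 CPM at 1 h. Without the block, ins-10 passed when IF_1hr_181 or IF_24hr_185 was left out, and ins-29 when IF_1hr_183 was (adjusted p 0.0404 to 0.0436).

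The summed ASI and ASJ markers were 23.2 to 30.5 CPM in IvF at 24 h and 14.3 to 17.9 CPM in IvF at 1 h, with 1 of 4 markers higher and 0 lower, the other direction from daf-28 and ins-6. The summed intestinal markers were 521 to 723 CPM at 24 h and 1492 to 1939 CPM at 1 h, with 1 of 5 higher and 2 lower. The part of either in the changes of the members was not tested.

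Without food, 2 of 30 members passed in IvS at 24 h against IvS at 1 h, where 5.24% of all genes passed (2.07% higher, 3.17% lower), and both fell. By CPM alone 7 members did not overlap, where 20.6% of all genes did not. ins-35 had 8.43, 14.6, 10.2 and 9.68 CPM in IvS at 24 h and 23.3, 23, 24.5 and 20.3 CPM in IvS at 1 h (log2 fold change -1.02 ± 0.23, adjusted p = 0.00686). In IvF the same gene had 22.02, 20.4, 16.2 and 17.4 CPM at 24 h and 20.7, 18.02, 14.6 and 17.4 CPM at 1 h (log2 fold change 0.05 ± 0.22, adjusted p = 0.977). ins-6 had 0.901, 1.80, 0.995 and 1.13 CPM in IvS at 24 h and 2.18, 2.54, 3.27 and 2.97 CPM in IvS at 1 h (log2 fold change -1.10 ± 0.31, adjusted p = 0.0327). Its call was lost without I_1hr_185, I_1hr_186, I_24hr_181, I_24hr_185 or I_24hr_186 (adjusted p 0.0761 to 0.120). Intestinal markers summed to 473 to 613 CPM at 24 h and 1210 to 1877 CPM at 1 h in IvS, with 0 of 5 higher and 2 lower, and their part in the fall of ins-35 was not tested. ins-10 (5.28, 7.53, 5.58 and 6.95 CPM at 24 h, 3.55, 4.44, 3.73 and 3.24 CPM at 1 h) and daf-28 (32.8, 27.8, 32.7 and 26.4 CPM at 24 h, 24.4, 22.7, 19.8 and 21.9 CPM at 1 h) were higher in every 24 h library than in any 1 h library but did not pass (adjusted p = 0.0562 and 0.292). ins-11 had 1.09, 3.54, 3.09 and 3.92 CPM at 24 h and 1.18, 0.952, 1.20 and 0.483 CPM at 1 h (log2 fold change 1.65 ± 0.51, adjusted p = 0.0600). ins-10 passed without I_24hr_185 (adjusted p = 0.0482) and ins-11 without I_24hr_181 (adjusted p = 0.0304).

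The libraries with ivermectin differed from those without it in most members. In IvF against F at 1 h, 20 of 30 members passed, 3 higher and 17 lower, where 60.8% of all genes passed (33.1% higher, 27.7% lower). In IvS against S at 1 h, 22 members passed, 4 higher and 18 lower, where 57.3% of all genes passed (28.2% higher, 29.1% lower). By CPM alone 18 and 17 members did not overlap in these comparisons, where 55.6% and 53.6% of all genes did not. The same 15 members were lower in both. ins-31 and ins-39, which passed the filter through ivermectin libraries alone, were higher in both. All 3 putative antagonists were among the 15. How many of all genes were lower, or higher, in both was not counted. Among other protein-coding genes of over 250 to 500 bases, 61.8% were lower in IvF against F and 67.4% in IvS against S. The medians were -1.01 over the members and 0.13 over all genes in IvF against F, and -1.33 and 0.04 in IvS against S. Of the neuronal markers, 1 of 6 was higher and 4 lower in IvF against F, and 1 higher and 5 lower in IvS against S, with medians of -0.67 and -0.87. Other markers moved further. All 3 pharynx muscle markers were higher in both comparisons, with sums of 4702 to 6082 CPM in IvF against 374 to 500.2 CPM in F. In IvS their sums ran from 4787 to 6168 CPM, against 333 to 924 CPM in S. The 3 body wall muscle markers were higher in both as well (medians 1.37 and 1.17). Of 3 adult markers 2 were lower in IvF against F and 3 in IvS against S (medians -1.91 and -2.54). The part of any of these in the falls of the members was not tested.

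Fold changes in both comparisons went with exon length above 250 bases, in other protein-coding genes as well, and the part of length in the changes of the members was not tested. Exons of the 30 members sum to 295 to 955 bases, with a median of 492.5 bases, against 1280 bases for the protein-coding genes tested. The 15 members of over 250 to 500 bases had a median of -1.33 in IvF against F, beside -1.28 for 982 other protein-coding genes of that length (61.8% lower by the call). In IvS against S the medians were -1.80 for the 15 members and -1.55 for the other genes (67.4% lower). From over 500 to 750 bases the medians were -0.57 for 11 members and -0.88 for 1814 other genes in IvF against F, and -0.64 and -1.09 in IvS against S. Genes longer than 3000 bases had medians of 0.90 and 0.94. The 4 members of over 750 bases had -0.69 beside -0.18 for 2392 other genes of over 750 to 1000 bases in IvF against F, and -0.31 beside -0.42 in IvS against S. Neither food comparison with ivermectin had such a spread, since the class medians ran from -0.04 to 0.05 at 1 h and from -0.05 to 0.04 at 24 h. In F against S the medians were -0.29 for genes of over 250 to 500 bases and -0.02 above 3000 bases. There the 15 members of over 250 to 500 bases had a median of -0.63. The 11 of over 500 to 750 bases had 0.39, beside -0.15 for other genes of that length. The 4 longer members had 1.30, beside -0.09 for other genes of over 750 to 1000 bases.

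**Figure D4:**
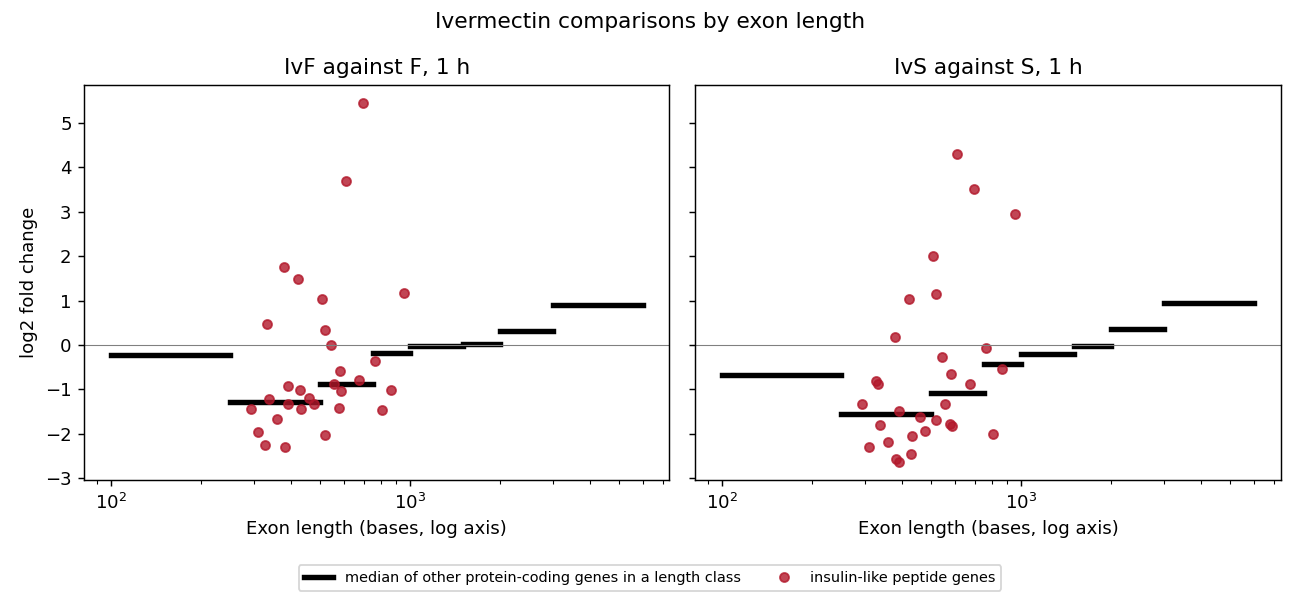
Log2 fold change of the 30 members (red points) by exon length on a log axis, beside the median of all other protein-coding genes in 8 length classes (black bars; the first is drawn from 100 bases and the last, above 3000 bases). IvF against F is left and IvS against S right. Above 250 bases the medians climb with length in both, and most members lie at or below 0 with the short genes.

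Among the 3 largest falls in each comparison, ins-35 was in both. It had 20.7, 18.02, 14.6 and 17.4 CPM in IvF, against 82.97, 56.2, 65.4 and 86.8 CPM in F (log2 fold change -2.29 ± 0.23, adjusted p = 1.55e-08). In IvS it had 23.3, 23, 24.5 and 20.3 CPM, against 113, 76.7, 80.3 and 124 CPM in S (log2 fold change -2.57 ± 0.23, adjusted p = 6.07e-09). The others in IvF against F were ins-12 (log2 fold change -2.25 ± 0.59, adjusted p = 0.00219) and ins-6 (log2 fold change -2.03 ± 0.27, adjusted p = 8.95e-07), whose values in IvF are given above. In IvS against S they were ins-10 (log2 fold change -2.64 ± 0.26, adjusted p = 1.35e-08) and ins-20, with 0.498, 0.423, 0.866 and 0.897 CPM in IvS and 2.48, 1.93, 1.16 and 5.84 CPM in S (log2 fold change -2.46 ± 0.53, adjusted p = 3.69e-04). In ins-35 none of the 16 ivermectin libraries reached the range of the libraries without it. In ins-10 this held for the ivermectin libraries at 1 h, while those at 24 h reached into the range of F. daf-28, ins-4, ins-7, ins-33 and ins-36 passed in neither comparison. daf-28 changed by -0.37 ± 0.23 in IvF against F and -0.06 ± 0.24 in IvS against S, and it fell in IvF against F without IF_1hr_181 (log2 fold change -0.61, adjusted p = 0.0250).

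The members that rose were rare ones. ins-39, a member without a role, had 1.54, 2.57, 3.06 and 4.57 CPM in IvF and 0, 0.345, 0.0961 and 0.285 CPM in F (log2 fold change 3.70 ± 0.68, adjusted p = 5.41e-05). It had 2.18, 2.64, 3.33 and 2.48 CPM in IvS and 0, 0.215, 0.166 and 0 CPM in S (log2 fold change 4.29 ± 0.74, adjusted p = 2.90e-05). ins-31 had 129 reads over the 4 IvF libraries and 1 read over the 4 F libraries, a ratio of CPM of 71.0 with a 95% counting interval of 12.5 to 2827 (adjusted p = 2.00e-04). In IvS it had 78 reads and in S 3 reads, a ratio of 17.8 with an interval of 5.88 to 88.4 (adjusted p = 0.00347). ins-37 had 51 reads in IvS and 3 reads in S, a ratio of 11.7 with an interval of 3.77 to 58.4 (adjusted p = 0.0214). That call was lost without replicate 1, 2 or 3 of S or I_1hr_186 (adjusted p 0.0519 to 0.0681). ins-34 rose in IvS, with 1.56, 2.38, 4.47 and 2.69 CPM in IvS and 0.424, 0.644, 0.249 and 0.801 CPM in S (log2 fold change 1.996 ± 0.50, adjusted p = 0.00163), and the call held with each library left out. Its exons overlap those of nkcc-1 on the other strand, and reads in the shared stretch cannot be told apart. nkcc-1 was higher as well, at 142 to 152 CPM in IvS and 15.8 to 33.4 CPM in S (log2 fold change 2.22 ± 0.15, adjusted p = 4.35e-10). Its part in the rise of ins-34 was not tested. ins-25 was the third to rise in IvF against F, at 1.34, 1.37, 1.66 and 1.77 CPM in IvF and 0.446, 0.345, 0.384 and 0.285 CPM in F (log2 fold change 1.75 ± 0.36, adjusted p = 2.10e-04), while in IvS against S it changed by 0.19 ± 0.32 (adjusted p = 0.627). Of these 5 members, ins-31, ins-37 and ins-39 passed the filter through ivermectin libraries alone. The filter thus favoured a rise there, and their calls are no support for one. ins-7, ins-33 and ins-36 passed it the same way and were called in neither comparison, and ins-37 was not called in IvF against F.

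Within some ivermectin conditions the rare members were higher in libraries with a larger share of reads outside annotated features. In order of that share, the IvF libraries at 24 h (5.30%, 5.94%, 6.52% and 11.3%) had 1.65, 1.92, 2.03 and 3.45 CPM of ins-39. The IvS libraries at 24 h (4.39%, 4.84%, 7.01% and 8.39%) had 0.653, 0.674, 2.96 and 3.65 CPM, and the IvF libraries at 1 h (4.46%, 5.69%, 7.76% and 9.52%) had 1.54, 2.57, 3.06 and 4.57 CPM. In the IvS libraries at 1 h (5.58%, 6.63%, 6.97% and 7.90%) the values were 2.18, 3.33, 2.64 and 2.48 CPM, which do not follow that order. In the same orders ins-31 had 0.672, 0.989, 0.549 and 2.77 CPM in IvF at 24 h and 0.119, 0.281, 0.966 and 2.04 CPM in IvS at 24 h. At 1 h it had 0.463, 1.37, 2.28 and 3.05 CPM in IvF and 0.872, 0.600, 1.37 and 2.0 CPM in IvS. The library with the largest share was the highest in ins-31 in all 4 conditions. It was not in ins-34, with 1.96, 2.85, 1.76 and 2.88 CPM in IvF at 24 h but 1.56, 4.47, 2.38 and 2.69 CPM in IvS at 1 h.

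With the share as a covariate in the fit, 4 of these 6 calls stayed past the thresholds and 2 did not. The share itself separates all libraries with ivermectin from all those without it, so this fit cannot tell the share and the drug apart. Moreover, the filter itself favoured higher values of ins-31, ins-37 and ins-39 with ivermectin. In IvF against F ins-31 and ins-39 passed (adjusted p = 0.00314 and 9.34e-04). In IvS against S ins-39 and ins-34 passed (adjusted p = 3.55e-04 and 0.0409), and ins-31 and ins-37 did not (adjusted p = 0.0509 and 0.250). The part of these reads in the levels was not tested further.

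**Figure D5:**
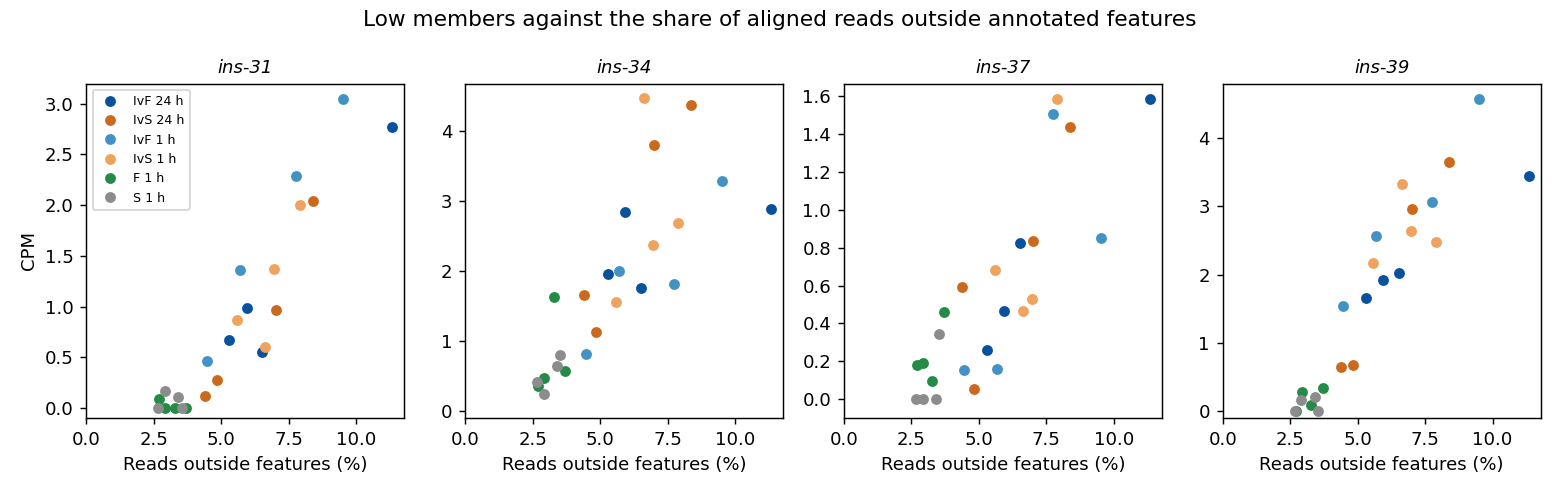
CPM of 4 rare members in each of the 24 libraries against the percent of aligned reads that fell outside annotated features; colours mark the 6 conditions. The libraries without ivermectin, at 2.67% to 3.70%, lie at the left in each panel. In the 4 ivermectin conditions the library with the largest share has the most CPM of ins-31, while ins-34 and ins-39 do not follow the share in IvS at 1 h.

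Called in none of the 9 tests were ins-4, ins-7, ins-33 and ins-36. ins-4 had at most 2.66 CPM in any library, ins-7 at most 1.66 CPM, ins-33 at most 1.86 CPM and ins-36 at most 1.47 CPM. A further 14 members passed in ivermectin comparisons alone.

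Of 11 genes that make and release the peptides, 0 were higher and 3 lower in F against S, a share near the 29.0% of all genes. In IvF against IvS 0 passed at either time, where 5.56% of all genes passed at 1 h and 0.777% at 24 h. Those lower in F were kpc-1, a furin-like convertase (42.8 CPM in F and 57.8 CPM in S, log2 fold change -0.58 ± 0.21, adjusted p = 0.0368), sbt-1, a chaperone of the convertase EGL-3 (639.6 CPM in F and 904 CPM in S, log2 fold change -0.67 ± 0.18, adjusted p = 0.00623), and unc-108, a Rab GTPase of dense core vesicles (773 CPM in F and 1051 CPM in S, log2 fold change -0.66 ± 0.18, adjusted p = 0.00679). The call of kpc-1 was lost without replicate 1 or 3 of F or replicate 2, 3 or 4 of S (adjusted p 0.0504 to 0.316), and without replicate 1 of S the change of unc-108 was -0.49. The convertase gene aex-5 fell with time, to 12.8 CPM in IvS at 24 h against 32.05 CPM at 1 h (log2 fold change -1.25 ± 0.15, adjusted p = 1.25e-05), and to 18.2 CPM in IvF at 24 h against 27.7 CPM at 1 h (log2 fold change -0.62 ± 0.15, adjusted p = 0.00815).

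Of 13 genes of the receptor and its cascade, 1 was higher and 6 lower in F against S, where 29.0% of all genes passed. The receptor gene daf-2 had 16.1, 37.4, 27 and 41.3 CPM in F and 19.6, 87.8, 46.9 and 197 CPM in S (log2 fold change -1.64 ± 0.37, adjusted p = 0.00134). The groups overlapped. Without the fourth S library the mean of S was 51.4 CPM, against 87.9 CPM with it, and the log2 fold change was -0.97 (adjusted p = 0.0129). The kinase gene akt-1 had a mean of 63.6 CPM in F and 252 CPM in S (log2 fold change -2.16 ± 0.16, adjusted p = 3.99e-10). The others that fell were ist-1, pdk-1, akt-2 and daf-16, and daf-18, the lipid phosphatase that opposes AGE-1, was higher (log2 fold change 0.63 ± 0.15, adjusted p = 0.00206). In IvF against IvS at 1 h, where 5.56% of all genes passed, 0 were higher and 4 lower: ist-1 (-1.18 ± 0.20), pdk-1 (-1.17 ± 0.13), akt-1 (-1.34 ± 0.16) and akt-2 (-0.68 ± 0.15). At 24 h 0 of 13 passed, where 0.777% of all genes did. The food effect differed between the times in pdk-1 (difference 0.999 ± 0.18, adjusted p = 0.00414) and akt-1 (difference 1.30 ± 0.22, adjusted p = 0.00188), as it did in ins-24 and daf-28.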

How the data were processed

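Poly(A) RNA of L1 larvae was sequenced in 24 libraries, 4 replicates of 6 conditions. The deposited counts are whole reads per gene without normalization, which the authors made by mapping with Bowtie (1.1.2 in the submitters' processing notes) to WS210 with transcripts of WS220 and counting with HTSeq. The strand setting of the counting is not given in the sources used here. Of 44968 identifiers, 44443 were matched to a name in the WBcel235 annotation or gene tables. That build differs from the authors', so no coordinates are printed, and exon lengths and neighbours are from WBcel235. The last entries of each file, HTSeq's totals of reads outside or shared by features, name no gene and entered no test or library size (reads shared by genes were 2.97% to 3.68% with ivermectin and 6.59% to 10.2% without it; reads outside features are given above). Promoter and protein sequences were not analysed here.

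Genes above 1 CPM in at least 4 libraries were kept. Tests used R 4.3.3 and edgeR 4.0.16, with TMM scaling, the robust quasi-likelihood F test, 1 fit of 6 group means and Benjamini-Hochberg adjustment over all genes tested, and were tested on simulated data. CPM were computed on the sum of gene counts. Intervals of read ratios are exact 95% intervals and, like the depth, cover counting error only. Every member that passed is accounted for, with values in each library where it passed in a food, time or interaction test. For ivermectin, the 3 largest rises and falls are given. ins-4, ins-5, ins-6, ins-12, ins-24 and daf-28 were given less room. The members, roles, pathway lists and markers were chosen with earlier results of these data known. Length classes and the look at reads outside features in rare members were chosen after the values were seen.

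Alternatives were edgeR's exact test, DESeq2 1.42.0, its size factors in edgeR, no filter, a mean of 5 CPM as filter, a covariate for reads outside features, a replicate block, fits of the compared groups alone, TMM-scaled CPM and each library left out. Deviations of same-numbered libraries correlated at 0.11 to 0.57 between F and S and at 0.17 to 0.51 between IvF at 24 h and at 1 h, over 0.1 in every pair, so that the numbers were taken to pair these. Between the other groups 1 or more pairs were below that (-0.12 to 0.61). Replicate 3 of F, at 0.106 with its own number, correlated more with another library of S (0.168). The main fits used no pairing in any comparison. The labels do not say what a number marks, and name no separate cultures; the study calls the replicates biological. If they are not, p-values measure only the spread between libraries.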

Additional observations from a re-analysis of the deposited data

Results flagged for a closer look

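In 180 groups of 4 libraries (30 members in 6 conditions) 9 had a library that stood apart by Dixon's test, and chance flags about 1 in 20 such groups. High libraries were replicate 1 of S in ins-18 (33.5 CPM, the others 23.0 to 24.1), IF_1hr_186 in ins-24 (11.6 CPM, the others 9.67 to 9.92), replicate 4 of S in ins-25 (1.83 CPM, the others 0.830 to 0.990) and replicate 1 of F in ins-27 (51.3 CPM, the others 33.2 to 34.6). Low libraries were I_24hr_185 in ins-1 (32.3 CPM, the others 41.3 to 42.0), IF_1hr_186 in ins-6 (5.00 CPM, the others 5.31 to 5.35) and I_1hr_186 in ins-28 (3.93 CPM, the others 4.81 to 4.98). In ins-31 replicate 1 of F had 0.0892 CPM and in ins-37 replicate 4 of S had 0.343 CPM, where the others had 0.

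The food effect differed between conditions by a test of the difference in 5 members. With ivermectin minus without it the difference was 1.31 in ins-10, 1.56 in ins-25 and 1.37 in ins-29 on the log2 scale, where 10.3% of all genes passed. At 24 h minus 1 h it was 1.16 in ins-24 and -1.38 in daf-28, where 0.971% of all genes passed. With each of 16 libraries left out in turn, the call was lost in 12 fits for ins-25, 7 for ins-29 and 14 for daf-28. Those of ins-10 and ins-24 held in every such fit.

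Reads outside annotated features, which entered the fits as a covariate in an alternative alone, reached 11.3% of the aligned reads in a library with ivermectin. The lowest library with ivermectin had 4.39%, above the 3.70% of the highest library without it.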

How the results depend on the processing

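No call of a member turned round under any alternative run. Members that were not called were not followed in this way. Among them, ins-37 in IvF against F went from a log2 fold change of 1.17 to -0.46 with the covariate for reads outside features. Of 476 values of called members under settings other than leaving out a library, 458 stayed on their side of the threshold and 18 did not. With 1 library left out, 521 of 592 did and 71 did not. The number of members called then ran from 8 to 12 in F against S, 3 to 4 and 0 to 1 in IvF against IvS at 1 h and 24 h, 4 to 6 and 1 to 3 over time in IvF and IvS, 20 to 24 in IvF against F, 20 to 23 in IvS against S, 1 to 4 for food with ivermectin and 1 to 2 for food with time.

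With reads outside features as a covariate, 2 members passed for food at 24 h, 8 and 5 over time in IvF and IvS, and 4 for food with time. Fits of the compared groups alone gave 2 for food at 24 h and 4 over time in IvS, with 211 and 1646 calls over all genes. Over time in IvS, where 2 were called, the exact test gave 4, DESeq2 5, its size factors 4 and a filter at a mean of 5 CPM 4. Calls over all genes were 1173, 1470, 1057 and 1225 in that order. That filter gave 12 in each ivermectin comparison, where fewer members were tested, 5 for food with ivermectin and 4 for food with time. No filter gave 1 for food with ivermectin. For food with ivermectin, calls over all genes were 2488 with the filter at 5 CPM and 1377 with no filter, against 1968 in the main fit. In the fit of the compared groups alone ins-22, ins-27 and ins-35 did not pass in F against S (adjusted p 0.0707 to 0.104), nor ins-12 over time in IvF nor ins-6 over time in IvS (0.0627 and 0.0643). With the covariate ins-17 and ins-30 did not pass in IvF against F (0.0946 and 0.0679), nor ins-11, ins-29, ins-31 and ins-37 in IvS against S (0.0509 to 0.250). The causes were not tested.

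The replicate block kept the same 10 members in F against S. Where the numbers were not shown to pair libraries, it gave 4 and 1 members for food at 1 h and 24 h with ivermectin, 7 over time in IvS, 3 for food with ivermectin and 4 for food with time. ins-25 was then not past the threshold (adjusted p = 0.0543) and ins-24 was (0.0354) for food with ivermectin, and ins-30 and ins-35 passed for food with time (0.0407 and 0.0447). No paired analysis was possible because no replicate numbers are shared for the comparisons of libraries with and without ivermectin.

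Over all genes, food at 24 h gave 148 calls, against 233 in the exact test, 260 with DESeq2 and 308 with the replicate block. Time in IvS gave 998, against 1781 with the block and 1646 in the compared groups alone. IvF against F gave 11586 and IvS against S 10910, against 6913 and 6817 with the filter at 5 CPM. Food with time gave 126 higher and 59 lower, against 412 with DESeq2 (199 higher), 395 with the block, 309 in the compared groups alone and 283 with that filter. DESeq2's size factors moved the median of all genes to 0.26 from a TMM value of 0.13 in IvF against F and to 0.18 from 0.04 in IvS against S, with 22 members called in each. On TMM-scaled CPM the mean sum of the members was 338 in IvF at 24 h, 260.8 in IvS at 1 h, 630.2 in F and 803 in S, against 377, 283, 567 and 622 on the library total. Members with few reads, such as ins-12 and ins-25, are limited by depth.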
